A study of Mus musculus with 2 samples.

Results

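The TREM receptors and the proteins that carry their signal were followed in single-cell RNA sequencing of mouse heart macrophages 3 days after myocardial infarction. Their genes were taken by symbol from the gene list of the deposited matrices. They were the receptors *Trem1*, *Trem2*, *Trem3* and *Treml4*, the adaptors *Tyrobp* (protein DAP12) and *Hcst* (protein DAP10), and the kinase *Syk*. All 7 were found among the 32285 genes of the matrices. The cells had been sorted as CD45+, CD11b+ and CD64+ from the infarct and its border zone, in CD40 knockout (KO) hearts for one library and in wild-type (WT) hearts for the other. All mice of both genotypes had the infarct, so no uninjured heart was measured. The sources used here give neither the strain, age and sex of the mice nor the number pooled per library, the *Cd40* allele or the cells it was deleted in. With 1 library per genotype no test between genotypes was possible, and every range in brackets is a 95% interval that covers counting error only.

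TREM receptors are cell-surface proteins with almost no signalling part of their own. TREM1, TREM2 and mouse TREM3 bind DAP12, whose ITAM motif is phosphorylated by Src family kinases and then recruits the kinase SYK. DAP10 carries a different motif that recruits PI3-kinase and GRB2, and it can work together with DAP12 under TREM2. TREM1 amplifies inflammatory responses of neutrophils and monocytes. TREM2 binds lipids, lipoproteins and cell debris, and its transcript marks lipid-handling macrophages in many injured tissues. *Treml4* encodes a receptor of mouse myeloid cells that binds dead cells.

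The 4 receptor genes lay in 1 cluster on the plus strand of chromosome 17 (GENCODE vM21, build GRCm38). *Trem1* (ENSMUSG00000042265) spanned 48232768 to 48246924, and *Trem3* (ENSMUSG00000041754) spanned 48247777 to 48258841. *Treml4* (ENSMUSG00000051682) spanned 48264295 to 48275360, and *Trem2* (ENSMUSG00000023992) spanned 48346401 to 48354147. From the start of *Trem1* to the end of *Trem2* the cluster measured 121380 bases, with *Treml2* and *B430306N03Rik* between *Treml4* and *Trem2*. *Tyrobp* (ENSMUSG00000030579) was annotated on chromosome 7, plus strand, at 30413760 to 30417585. *Hcst* (ENSMUSG00000064109) followed on the minus strand at 30417712 to 30419854, so the 3′ ends of the adaptor genes faced each other across 126 bases. The assay counts tags near 3′ ends, and whether counting used strand was not stated, so a tag past either end could not be told apart from one of the neighbour. *Syk* (ENSMUSG00000021457) was annotated on chromosome 13, plus strand, at 52583173 to 52648792.

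The 250 bases upstream of the annotated start are printed for *Trem1*, *Treml4* and *Trem2*, since *Trem1* and *Treml4* shared a pattern over cell groups that *Trem2* did not have. They come from RefSeq on GRCm38.p6 (chromosome 17, plus strand, 5′ to 3′), and its start of *Trem1* differs from that of GENCODE. Capitals mark matches on either strand to GAGGAA (PU.1), TTNCNNAA (C/EBP), TGANTCA (AP-1) or CACGTG (E-box).
Trem1, chr17:48232489-48232738: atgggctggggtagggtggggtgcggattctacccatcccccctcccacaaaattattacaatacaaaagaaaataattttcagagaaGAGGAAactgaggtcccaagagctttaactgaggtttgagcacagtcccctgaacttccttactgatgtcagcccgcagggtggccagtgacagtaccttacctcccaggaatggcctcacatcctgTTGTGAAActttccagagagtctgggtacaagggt
Treml4, chr17:48264045-48264294: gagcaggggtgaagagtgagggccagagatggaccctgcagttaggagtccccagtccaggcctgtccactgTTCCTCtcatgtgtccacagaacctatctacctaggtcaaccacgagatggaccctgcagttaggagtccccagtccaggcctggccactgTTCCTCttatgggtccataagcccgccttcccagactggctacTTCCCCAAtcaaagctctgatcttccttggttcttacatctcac
Trem2, chr17:48346151-48346400: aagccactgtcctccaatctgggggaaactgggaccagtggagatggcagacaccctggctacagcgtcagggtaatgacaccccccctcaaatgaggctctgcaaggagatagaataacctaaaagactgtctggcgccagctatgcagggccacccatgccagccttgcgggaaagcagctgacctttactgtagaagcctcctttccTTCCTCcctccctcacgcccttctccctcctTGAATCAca
The PU.1 letters were found in 1 place upstream of *Trem1*, in 2 places upstream of *Treml4* and in 1 place upstream of *Trem2*, and 23.3% of all 32851 upstream windows of this length held them. The C/EBP letters were found in 1 place each upstream of *Trem1* and *Treml4* and in none upstream of *Trem2*, against 36.8% of all windows. The AP-1 letters were found in 1 place, upstream of *Trem2*, against 6.75% of all windows. No E-box letters were found in these windows, against 6.02% of all windows. A match describes these letters and no binding.

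The libraries differed in depth and make-up. The library labelled CD40 KO, written KO-labelled below, held 8146 barcodes with 90057108 UMIs (molecules counted once), against 10624 barcodes with 139343516 UMIs in WT. Filters and doublet removal left 7404 KO-labelled and 7249 WT barcodes. Clusters were named from marker genes. Those that carried all core macrophage genes and no leading genes of another type, called *Gpnmb*, *Met*, interferon, cycling and *Lyve1* macrophages after a leading gene or state, formed the macrophage-like class of 2321 KO-labelled and 4741 WT barcodes. *Met* macrophages made up 46.4% (44.4 to 48.5) of the KO-labelled class and 18.9% (17.8 to 20.04) of the WT class. *Gpnmb* macrophages made up 22.1% (20.4 to 23.8) of the KO-labelled class and 60.9% (59.5 to 62.3) of the WT class. A cluster led by *Mt1* and *Crip1* held 4366 KO-labelled and 25 WT barcodes, 59.0% and 0.345% of their libraries, and was left unnamed. *Cd40* was at 15.5 CPM in the KO-labelled class and 17.2 CPM in the WT class (CPM, counts per 1000000 UMIs; log2 ratio −0.15, −0.28 to −0.01). The allele is not known here and a 3′ tag outside the deleted part checks nothing, so the labels could not be checked by this gene. The libraries share 23 barcode sequences, 13 of them among kept barcodes.

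**Figure D1:**
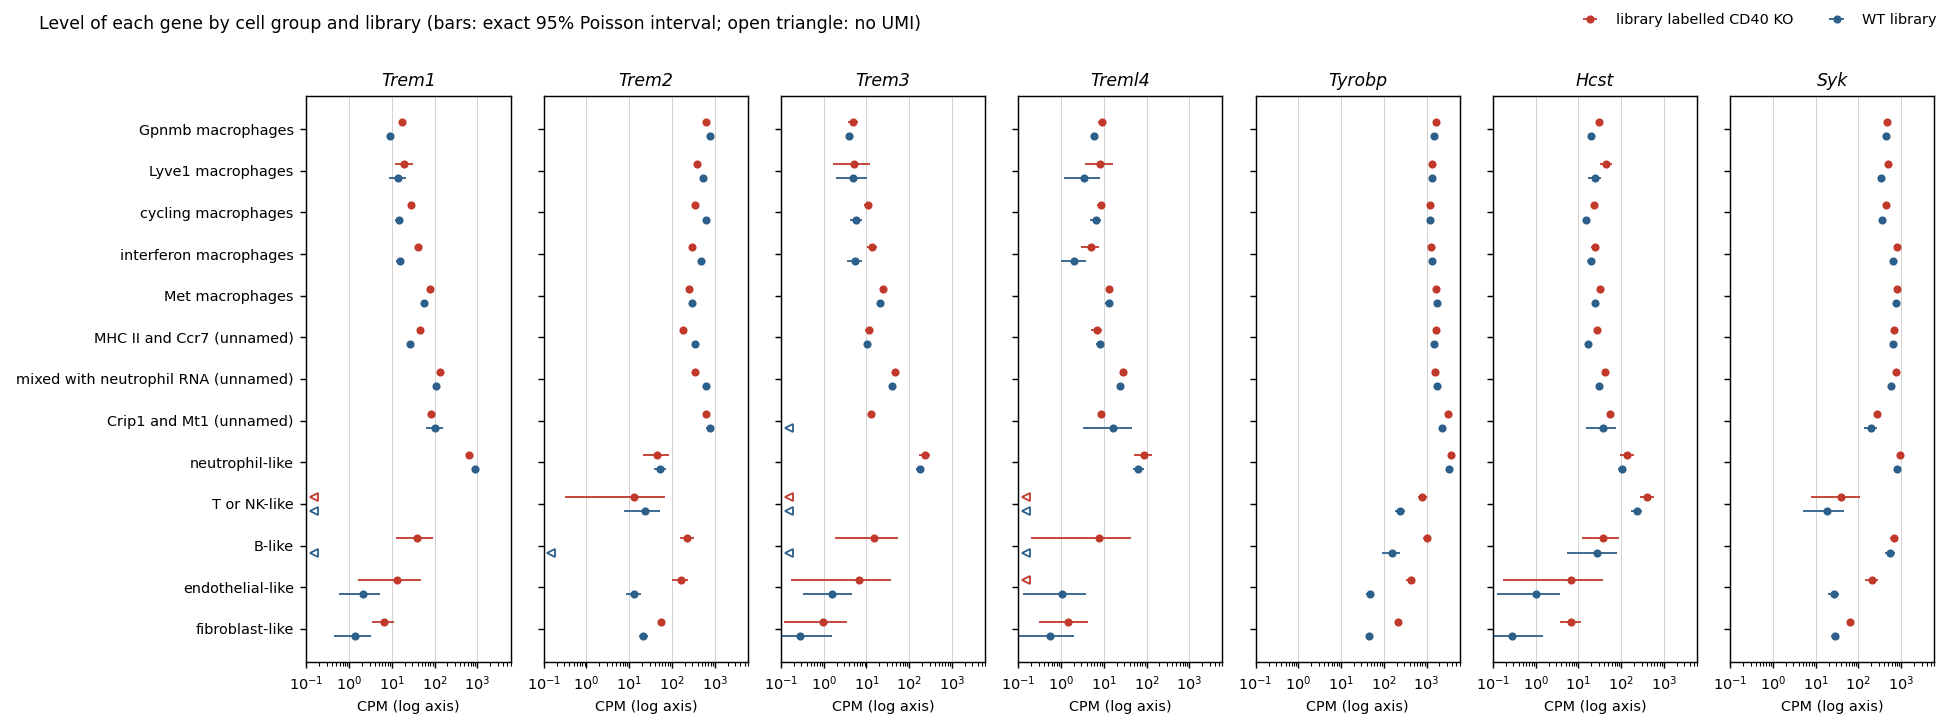
Level of each gene in CPM (log axis, 1 panel per gene) by cell group, red for the library labelled CD40 KO and blue for the WT library, with bars for exact Poisson 95% intervals and open triangles where no UMI was counted. *Trem1*, *Trem3* and *Treml4* lay furthest right in neutrophil-like barcodes, *Trem2* in macrophage groups, and *Hcst* in T or NK-like barcodes.

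*Trem1* was most abundant in neutrophil-like barcodes, with 642 CPM (535 to 763) in 64 KO-labelled barcodes and 903 CPM (837 to 972) in 306 WT barcodes. Within the macrophage-like class it was highest in *Met* macrophages, which also expressed the monocyte genes *Ly6c2* and *Vcan*, at 77.0 CPM (73.2 to 81.0) in KO-labelled and 55.8 CPM (51.3 to 60.7) in WT barcodes. *Gpnmb* macrophages had 17.6 CPM (15.2 to 20.4) in KO-labelled and 9.25 CPM (8.39 to 10.2) in WT barcodes. The *Met* and *Gpnmb* intervals were apart in both libraries. Interferon macrophages had 41.1 CPM in KO-labelled and 15.5 CPM in WT barcodes. Cycling macrophages had 27.6 CPM in KO-labelled and 14.8 CPM in WT barcodes, and *Lyve1* macrophages 19.6 CPM in KO-labelled and 14.1 CPM in WT barcodes. The clusters were built from the same counts, so a difference between clusters is a description, and *Trem1* and *Trem3* were among the genes used to build them. No *Trem1* UMI was counted in T or NK-like barcodes, which allows up to 38.1 CPM in KO-labelled and 13.7 CPM in WT barcodes (3 counts per library). With a gate on marker UMIs per barcode, 31 KO-labelled T or NK-gated barcodes held 13 (41.8 CPM, 22.3 to 71.5). Of those barcodes 15 lay near the limit, and the 42 WT ones held 0.

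Neutrophil transcripts were measured beside these levels, because neutrophil-like barcodes held the most *Trem1*. The 13 neutrophil markers summed to between 75.3 and 269.7 CPM over the 5 KO-labelled macrophage-like clusters, with 0 to 6 of them at 0. Over the 5 WT clusters they summed to between 126.6 and 210.0 CPM, with 0 to 4 at 0. In neutrophil-like barcodes the sums were 51989 CPM in KO-labelled and 38279 CPM in WT barcodes. KO-labelled neutrophil-like barcodes carried 2755 UMIs of *S100a8*, an abundant neutrophil transcript, per 100 UMIs of *Trem1*, and WT ones 1294. The 5 macrophage-like clusters carried between 66.5 and 89.6 in KO-labelled and between 87.0 and 245 in WT barcodes. Per *Trem1* UMI, macrophages held far less *S100a8* than neutrophil-like barcodes of the same library. For *S100a9* the 5 clusters carried between 39.3 and 108.8 UMIs per 100 of *Trem1* in KO-labelled and between 56.9 and 455 in WT barcodes. These ratios are a description and test no source of *Trem1*. At a common depth of 3000 UMIs per barcode, 54.3% of KO-labelled *Met* macrophages with a *Trem1* UMI and 61.5% of those without one had no neutrophil marker UMI. In WT *Met* macrophages it was 58.3% of barcodes with *Trem1* and 68.1% of those without it, and their means were 1.05 and 0.531 neutrophil marker UMIs. In KO-labelled *Met* macrophages the means were 0.698 with *Trem1* and 0.717 without it. *Met* macrophages with *Trem1* thus had a neutrophil marker UMI somewhat more often in both libraries, while their mean was higher in WT only. The part of neutrophil transcripts in the *Trem1* level was not tested.

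*Trem3* and *Treml4* followed *Trem1* at lower levels. *Trem3* reached 231 CPM (169 to 308) in KO-labelled and 175 CPM (147 to 208) in WT neutrophil-like barcodes. In *Met* macrophages it stood at 23.9 CPM (21.8 to 26.1) in KO-labelled and 21.0 CPM (18.3 to 24.1) in WT barcodes, with overlapping intervals. *Treml4* reached 85.2 CPM (49.6 to 136) in KO-labelled and 64.5 CPM (47.9 to 85.0) in WT neutrophil-like barcodes, and the intervals overlapped. In *Met* macrophages it was at 13.2 CPM in KO-labelled and 12.98 CPM in WT barcodes. In *Gpnmb* macrophages it was at 9.16 CPM (7.41 to 11.2) in KO-labelled and 5.77 CPM (5.10 to 6.50) in WT barcodes. The balance with *Trem1* differed between cell groups. *Gpnmb* macrophages carried 51.9 *Treml4* UMIs (40.1 to 66.9) per 100 *Trem1* UMIs in KO-labelled and 62.4 (53.3 to 72.9) in WT barcodes. Neutrophil-like barcodes carried 13.3 (7.50 to 22.1) in KO-labelled and 7.14 (5.25 to 9.52) in WT barcodes. Relative to *Trem1*, *Treml4* was thus higher in *Gpnmb* macrophages than in neutrophil-like barcodes, in both libraries. Of the UMIs of all 4 receptors it was a smaller part there, 1.40% in KO-labelled and 0.723% in WT *Gpnmb* macrophages, against 8.50% in KO-labelled and 5.39% in WT neutrophil-like barcodes.

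*Trem2* had another order. Among the named clusters it was highest in *Gpnmb* macrophages, which also expressed the lipid genes *Fabp5* and *Lpl*, with 624 CPM (609 to 639.8) in KO-labelled and 778 CPM (770.4 to 786) in WT barcodes. The lowest macrophage-like level was that of *Met* macrophages, 249 CPM (242 to 256) in KO-labelled and 292 CPM (282 to 303) in WT barcodes. Cycling macrophages had 353 CPM (342 to 364) in KO-labelled and 620.2 CPM (602 to 639) in WT barcodes. Interferon macrophages had 287 CPM (271 to 305) in KO-labelled and 474 CPM (455 to 494) in WT barcodes. *Lyve1* macrophages, which carry genes of resident macrophages, had 391 CPM (353 to 433) in KO-labelled and 526 CPM (488 to 565) in WT barcodes. In the KO-labelled library the order was *Gpnmb*, *Lyve1*, cycling, interferon and *Met*, where *Lyve1* and cycling macrophages were not apart beyond their intervals. In WT it was *Gpnmb*, cycling, *Lyve1*, interferon and *Met*, where *Lyve1* and interferon macrophages were not apart.

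*Trem2* was also counted outside macrophages. Neutrophil-like barcodes had 45.1 CPM (20.6 to 85.7) in KO-labelled and 52.9 CPM (38.0 to 71.7) in WT barcodes. Fibroblast-like barcodes, which should lack the gene and so show the background of free or admixed RNA, had 56.0 CPM (46.2 to 67.2) in 68 KO-labelled and 21.6 CPM (17.1 to 26.9) in 130 WT barcodes. That background was higher in the KO-labelled library (log2 ratio 1.37, 0.95 to 1.81), as was that of *Tyrobp* (2.26, 1.996 to 2.53) and *Syk* (1.18, 0.80 to 1.56). In fibroblast-like barcodes 10.5% of measured genes were past 1.5-fold upward in the KO-labelled library, as these 3 were, and 16.2% downward. *Trem2* was thus lower in KO-labelled macrophages and higher in KO-labelled fibroblast-like barcodes.

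**Figure D2:**
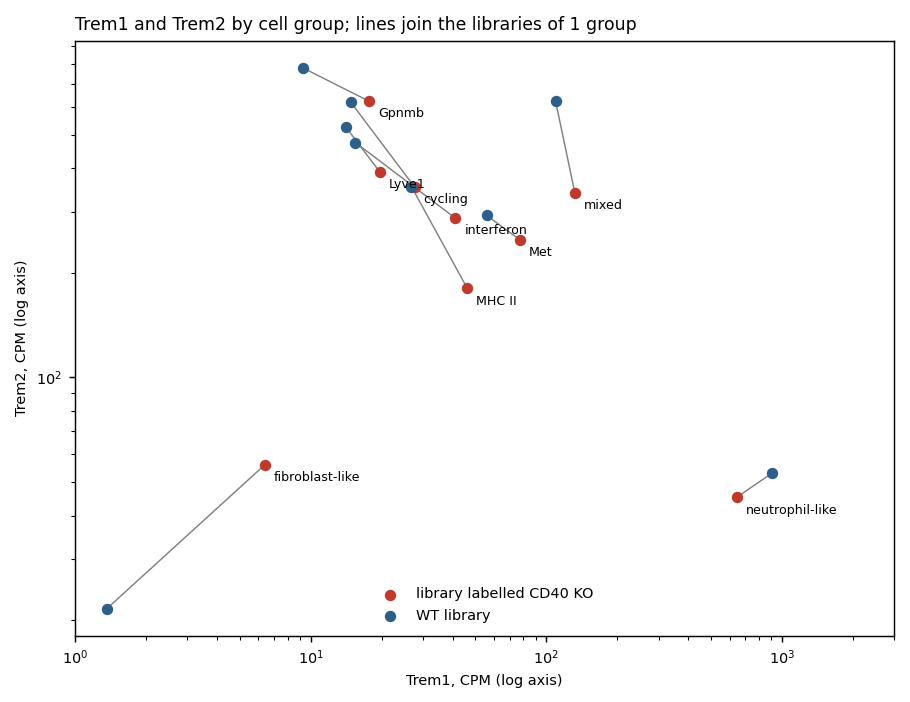
*Trem2* against *Trem1* in CPM (both axes logarithmic), 1 point per cell group and library, with a line joining the library labelled CD40 KO (red) to WT (blue) in each group. In the 5 macrophage-like clusters the red point lay to the right of and below the blue one, in fibroblast-like barcodes to the right and above, and in neutrophil-like barcodes to the left.

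Of the UMIs of all 4 receptors, *Trem2* made up 83.3% (82.8 to 83.8) in the KO-labelled class and 95.7% (95.5 to 95.8) in the WT class. *Trem1* made up 10.8% (10.4 to 11.3) in the KO-labelled class and 2.44% (2.31 to 2.58) in the WT class. In *Gpnmb* macrophages the *Trem2* share was 95.2% in KO-labelled and 97.6% in WT barcodes, and in *Met* macrophages 68.6% in KO-labelled and 76.5% in WT barcodes. In neutrophil-like barcodes it was 4.50% (2.08 to 8.37) in KO-labelled and 4.42% (3.19 to 5.95) in WT barcodes. There *Trem1* made up 64.0% (56.9 to 70.6) in KO-labelled and 75.5% (72.6 to 78.2) in WT barcodes. The receptor make-up differed more between neutrophils and macrophages than between the libraries.

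The adaptor *Tyrobp* was present in all myeloid groups. It stood at 3645 CPM (3385 to 3919.6) in KO-labelled and 3325 CPM (3198 to 3456) in WT neutrophil-like barcodes. The macrophage-like class had 1515 CPM (1503 to 1526) in KO-labelled and 1517 CPM (1507 to 1526) in WT barcodes. Its lowest cluster was that of cycling macrophages, with 1184 CPM in KO-labelled and 1232 CPM in WT barcodes. At 3000 UMIs per barcode, 95.4% (94.5 to 96.3) of KO-labelled and 97.1% (96.6 to 97.6) of WT class barcodes had a *Tyrobp* UMI. The same share in fibroblast-like barcodes, read as background, was 30.6% (19.6 to 43.7) in KO-labelled and 9.76% (5.14 to 16.4) in WT barcodes.

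*Hcst*, the second adaptor, was highest in T or NK-like barcodes, where DAP10 serves the receptor NKG2D, with 406 CPM (278 to 573) in 11 KO-labelled and 233 CPM (173 to 306) in 41 WT barcodes. Neutrophil-like barcodes had 140.4 CPM (93.3 to 203) in KO-labelled and 104 CPM (83.0 to 129.9) in WT barcodes. With a gate on marker UMIs per barcode this order held in WT and not in the KO-labelled library. The 31 KO-labelled T or NK-gated barcodes, 15 of them near the limit, had 122 CPM (86.4 to 168). KO-labelled neutrophil-gated barcodes had 126 CPM (80.9 to 188). In WT the values were 188 CPM (137 to 252) in T or NK-gated and 104 CPM (81.7 to 131) in neutrophil-gated barcodes. The macrophage-like class had 29.1 CPM (27.6 to 30.7) in KO-labelled and 19.9 CPM (18.8 to 20.95) in WT barcodes. A 3′ assay counts 1 tag per molecule and capture can differ between genes, so the ratio of 2 genes is read between cell groups and not as their relative level. Per 100 *Tyrobp* UMIs there were 50.8 *Hcst* UMIs (32.1 to 78.9) in KO-labelled and 96.2 (64.2 to 144) in WT T or NK-like barcodes. In the macrophage-like class there were 1.92 (1.82 to 2.03) in KO-labelled and 1.31 (1.24 to 1.38) in WT barcodes. T or NK-like barcodes stood apart from macrophages in the balance of the adaptors, in both libraries. The size of this balance depended on the barcodes counted. T or NK-gated barcodes held 38 *Hcst* beside 448 *Tyrobp* UMIs in the KO-labelled library and 45 beside 124 in WT.

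*Syk* was found in myeloid and B-like barcodes. Neutrophil-like barcodes had 963 CPM (831 to 1109) in KO-labelled and 806 CPM (744 to 872) in WT barcodes. *Met* macrophages had 813 CPM (801 to 826) in KO-labelled and 767 CPM (749.6 to 784) in WT barcodes. *Gpnmb* macrophages had 479 CPM (466 to 492) in KO-labelled and 436 CPM (429.7 to 442) in WT barcodes. *Syk* was thus higher in *Met* than in *Gpnmb* macrophages in both libraries, as *Trem1* was and *Trem2* was not. B-like barcodes, in which SYK serves the B cell receptor, had 683 CPM (548 to 840.3) in 12 KO-labelled and 556 CPM (426 to 712) in 28 WT barcodes. The WT B-like barcodes held no UMI of any of the 4 receptors, which allows up to 26.9 CPM of each, while the KO-labelled ones held 30 UMIs of *Trem2* (230.2 CPM, 155 to 329).

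Between the libraries, *Trem1* in the macrophage-like class was at 47.4 CPM (45.5 to 49.5) in KO-labelled and 17.0 CPM (16.1 to 18.0) in WT barcodes, a log2 ratio of 1.48 (1.38 to 1.58). *Trem3* was at 15.2 CPM (14.1 to 16.3) in KO-labelled and 6.70 CPM (6.11 to 7.34) in WT barcodes, with a log2 ratio of 1.18 (1.01 to 1.35). That ratio was 0.20 over every kept barcode and 0.27 with a gate on marker UMIs, so it depended on which barcodes were counted. *Trem2* was at 365 CPM (359 to 370.2) in KO-labelled and 667 CPM (660.5 to 673) in WT barcodes, with a log2 ratio of −0.87 (−0.90 to −0.84). Of the 6 members at a mean of at least 10 CPM, 2 were past 1.5-fold upward in the KO-labelled class (*Trem1*, *Trem3*) and 1 downward (*Trem2*). *Trem3*, at a mean of 10.9 CPM, met that floor only through the KO-labelled library, where it was higher, so its place in this count adds little. Over all 7589 genes at that floor, 9.4% were past 1.5-fold upward and 3.79% downward, and the median log2 ratio was 0.10. The other measured members had log2 ratios of 0.55 (0.44 to 0.66, *Hcst*), 0.39 (0.36 to 0.41, *Syk*) and −0.00 (−0.02 to 0.01, *Tyrobp*). *Treml4*, below the floor, was at 10.4 CPM in KO-labelled and 6.56 CPM in WT barcodes (0.66, 0.48 to 0.85).

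Scaling by median of ratios in place of total UMIs moved every log2 ratio by −0.28 and the median of all genes to −0.18. It left 293 genes upward and 1095 downward, against 713 and 288 with CPM, so 21.1% of genes past the fold were upward with it and 71.2% with CPM. *Trem1*, *Trem2* and *Trem3* were on the same side of 1.5-fold with both scalings, *Hcst* (0.27) and *Syk* (0.11) kept a positive ratio, and *Tyrobp* moved to −0.28. Neutrophil markers summed to 215.5 CPM in the KO-labelled class and 148.6 CPM in the WT class, with none of the 13 at 0. Among these 13, 10 were higher in the KO-labelled class and 3 lower, with a median log2 ratio of 1.12. Within the 5 clusters their medians ran from −1.37 in *Lyve1* to 1.27 in interferon macrophages. Fibroblast markers summed to 38.4 CPM in the KO-labelled and 17.5 CPM in the WT class, and endothelial markers to 124 CPM in the KO-labelled and 489 CPM in the WT class. The 16 macrophage markers summed to 11100 CPM in the KO-labelled and 16490 CPM in the WT class, and none was at 0. Of these, 11 were lower in the KO-labelled class and 5 higher, with a median log2 ratio of −0.40. Within the 5 clusters between 9 and 12 of them were lower, and the medians ran from −0.10 in *Gpnmb* to −0.42 in cycling macrophages. *Trem2* was thus lower together with most macrophage markers, and the part of these lists in the ratios was not tested.

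*Met* macrophages held the larger part of the KO-labelled class and *Gpnmb* macrophages that of the WT class, so the ratios were also taken with the 5 cluster shares made equal. *Trem1* then stood at 0.74, *Hcst* at 0.59, *Syk* at 0.24, *Tyrobp* at −0.02 and *Trem2* at −0.50. *Trem1* and *Hcst* were then the members past 1.5-fold upward, among 5.31% of 7696 measured genes. *Trem2* was not past 1.5-fold downward, where 2.65% of genes were. *Trem3* (0.51) and *Treml4* (0.52) were then below the floor.

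**Figure D3:**
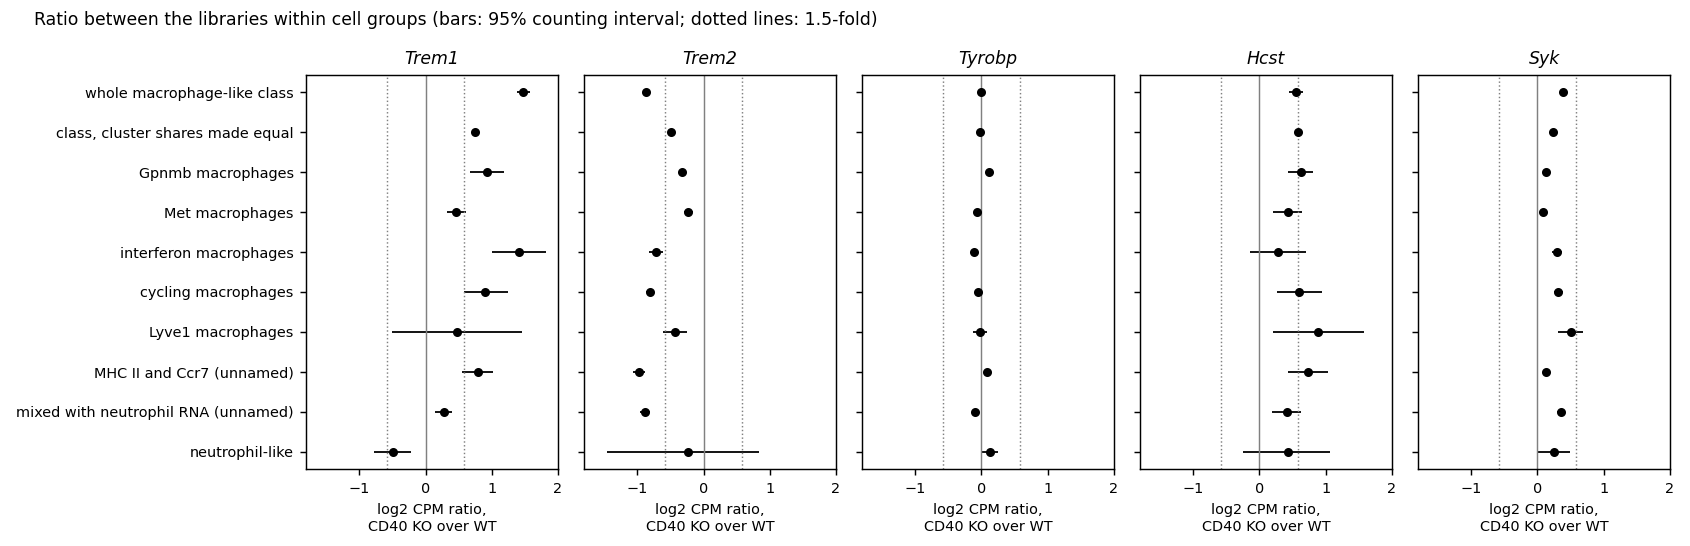
Log2 ratio of CPM, CD40 KO over WT, for 5 genes in the whole macrophage-like class, with equal cluster shares and within single cell groups, with bars for the 95% counting interval and dotted lines at 1.5-fold. Points of *Trem2* lay left of 0 in all 10 groups drawn, those of *Trem1* right of 0 in all but the neutrophil-like group, and those of *Tyrobp* between −0.11 and 0.13.

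Within single clusters *Trem2* was lower in KO-labelled barcodes in all 5, from −0.23 in *Met* to −0.81 in cycling macrophages, with every interval below 0. It passed 1.5-fold in interferon macrophages (−0.72, −0.83 to −0.62), where 6.14% of measured genes were that far downward, and in cycling macrophages (−0.81, −0.88 to −0.75), where 4.41% were. In *Gpnmb* (−0.32), *Met* (−0.23) and *Lyve1* (−0.43) macrophages it did not, and 1.67%, 3.44% and 12% of genes did. *Trem1* was higher in all 5, from 0.46 in *Met* to 1.41 in interferon macrophages, with the interval above 0 in 4 and not in *Lyve1* macrophages (0.47, −0.51 to 1.46). It passed 1.5-fold in *Gpnmb* (0.93), interferon (1.41) and cycling (0.90) macrophages, where 5.24%, 10.8% and 9.25% of genes did so upward, and not in *Met* macrophages, where 4.98% did. In *Gpnmb* macrophages *Trem1* met the floor only through the KO-labelled library, with 17.6 CPM there and 9.25 CPM in WT barcodes. *Trem3* met the floor in 1 of the 5, *Met* macrophages, with a ratio of 0.18 (−0.06 to 0.42). That cluster held 473 of the 705 *Trem3* UMIs of the KO-labelled class and 209 of the 465 of the WT class.

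Of the adaptors and the kinase, *Tyrobp* differed least between the libraries. *Hcst* differed more than *Trem2* in *Gpnmb*, *Met* (0.43) and *Lyve1* macrophages, and less in interferon and cycling macrophages. *Hcst* was higher in KO-labelled barcodes in all 5 clusters, from 0.28 in interferon to 0.89 in *Lyve1* macrophages, with the interval above 0 in 4 and not in interferon macrophages (−0.14 to 0.71). It passed 1.5-fold in *Gpnmb* (0.62), cycling (0.60) and *Lyve1* (0.89) macrophages, and in the last of these 12.5% of measured genes did so upward. *Syk* was higher in all 5, from 0.09 in *Met* to 0.50 in *Lyve1* macrophages, and passed 1.5-fold in none. *Tyrobp* ranged from −0.11 in interferon to 0.11 in *Gpnmb* macrophages. *Lyve1* macrophages numbered 48 KO-labelled and 109 WT barcodes, and their intervals were the widest of the 5 for these genes. Per 100 *Tyrobp* UMIs, *Gpnmb* macrophages carried 37.9 UMIs of *Trem2* (36.8 to 39.0) in KO-labelled and 51.0 (50.3 to 51.6) in WT barcodes. Cycling macrophages carried 29.8 (28.8 to 30.9) in KO-labelled and 50.3 (48.5 to 52.2) in WT barcodes. In *Gpnmb* and cycling macrophages the difference in *Trem2* was thus present relative to the transcript of its adaptor, a ratio that no library scaling changes. It was smaller in *Met* macrophages, where *Trem2* was at −0.23 and *Tyrobp* at −0.06.

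Groups outside the class were compared in the same way. A cluster led by MHC class II genes and *Ccr7* that also carried all core macrophage genes was left unnamed. *Trem2* in it was at 180.5 CPM (170.3 to 191) in 331 KO-labelled and 354 CPM (343 to 365) in 755 WT barcodes, a log2 ratio of −0.97 (−1.07 to −0.88), with 7.24% of measured genes past 1.5-fold downward. The 16 macrophage markers summed to 6318 CPM in KO-labelled and 12475 CPM in WT barcodes of this cluster, and 13 of them were lower in KO-labelled barcodes, with a median log2 ratio of −0.82. Dendritic markers summed to 855 CPM in KO-labelled and 581 CPM in WT barcodes, with 1 of 14 at 0 in each. T or NK markers summed to 623 CPM in KO-labelled and 357 CPM in WT barcodes. Of those 18 markers 7 were at 0 in KO-labelled and 8 in WT barcodes, with *Cd3e*, *Cd3g*, *Trbc1*, *Trbc2* and *Ncr1* at 0 in both. *Klrd1*, another of the 18, was a leading gene of this cluster. The part of both lists in the *Trem2* ratio was not tested. *Trem1* (0.79, 0.55 to 1.02) and *Hcst* (0.74, 0.43 to 1.04) were past 1.5-fold upward there, as were 8.26% of genes. A cluster that mixed macrophage with neutrophil transcripts had 339 CPM of *Trem2* in 188 KO-labelled and 625 CPM in 891 WT barcodes (−0.88, −0.95 to −0.81), with 6.32% of genes past 1.5-fold downward. *Trem1* in it was at 0.27 (0.15 to 0.40), with 10.2% past 1.5-fold upward. In neutrophil-like barcodes *Trem1* was lower in the KO-labelled library (−0.49, −0.78 to −0.22) and no member was past 1.5-fold, although 19.7% of measured genes were upward and 26.2% downward. *Trem3* (0.39, −0.12 to 0.89) and *Treml4* (0.40, −0.48 to 1.22) had intervals around 0 there. *Trem1* thus had ratios of opposite sign in neutrophils and macrophages, and the difference between them was not tested.

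The cluster led by *Mt1* and *Crip1* was nearly all KO-labelled and had a median of 3205 UMIs per barcode there. It carried 621 CPM of *Trem2* (609 to 633), 81.4 CPM of *Trem1* (77.3 to 85.7), 3245 CPM of *Tyrobp* (3219 to 3271), 55.6 CPM of *Hcst* (52.2 to 59.2) and 274 CPM of *Syk* (266 to 282). Of these, *Syk* was below the level of the KO-labelled macrophage-like class and the others above it. None of the 16 macrophage markers was at 0 in it. Its neutrophil markers summed to 1161 CPM and its fibroblast markers to 362 CPM, and their part in these levels was not tested. With this cluster added to the class, the log2 ratio was 1.72 for *Trem1*, 0.87 for *Hcst*, 0.39 for *Tyrobp*, 0.14 for *Syk* and −0.61 for *Trem2*. A gate on marker UMIs per barcode, whose limits were set after the data had been seen, took in 4298 of the 4391 barcodes of this cluster. It kept 6272 KO-labelled and 5330 WT macrophage-gated barcodes, of which 556 and 641 lay near the limit. *Trem2* was at 459.7 CPM in KO-labelled and 657.7 CPM in WT gated barcodes, and *Trem1* at 60.8 CPM in KO-labelled and 34.0 CPM in WT ones.

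In single barcodes thinned to 3000 UMIs, 51.6% (49.5 to 53.7) of the KO-labelled class and 74.0% (72.7 to 75.3) of the WT class had a *Trem2* UMI, with 89 KO-labelled and 198 WT shallower barcodes left out. Without thinning the shares were 82.6% in the KO-labelled and 88.8% in the WT class. Thinned fibroblast-like barcodes gave a background of 21.0% (11.7 to 33.2) in KO-labelled and 5.69% (2.32 to 11.4) in WT barcodes, whose median depths had been 23314.5 and 25385.5 UMIs. In *Gpnmb* macrophages 27.1% of KO-labelled and 39.0% of WT barcodes had at least 3 *Trem2* UMIs, while 23.9% of KO-labelled and 15.3% of WT barcodes had none. In cycling macrophages 10.1% of KO-labelled and 29.1% of WT barcodes had at least 3. The difference thus lay at both ends of the counts per barcode. A *Trem1* UMI was present in 13.8% (12.4 to 15.3) of the KO-labelled and 5.30% (4.67 to 5.997) of the WT class. In fibroblast-like barcodes that share was 3.23% (0.393 to 11.2) in KO-labelled and 0.813% (0.0206 to 4.45) in WT barcodes.

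**Figure D4:**
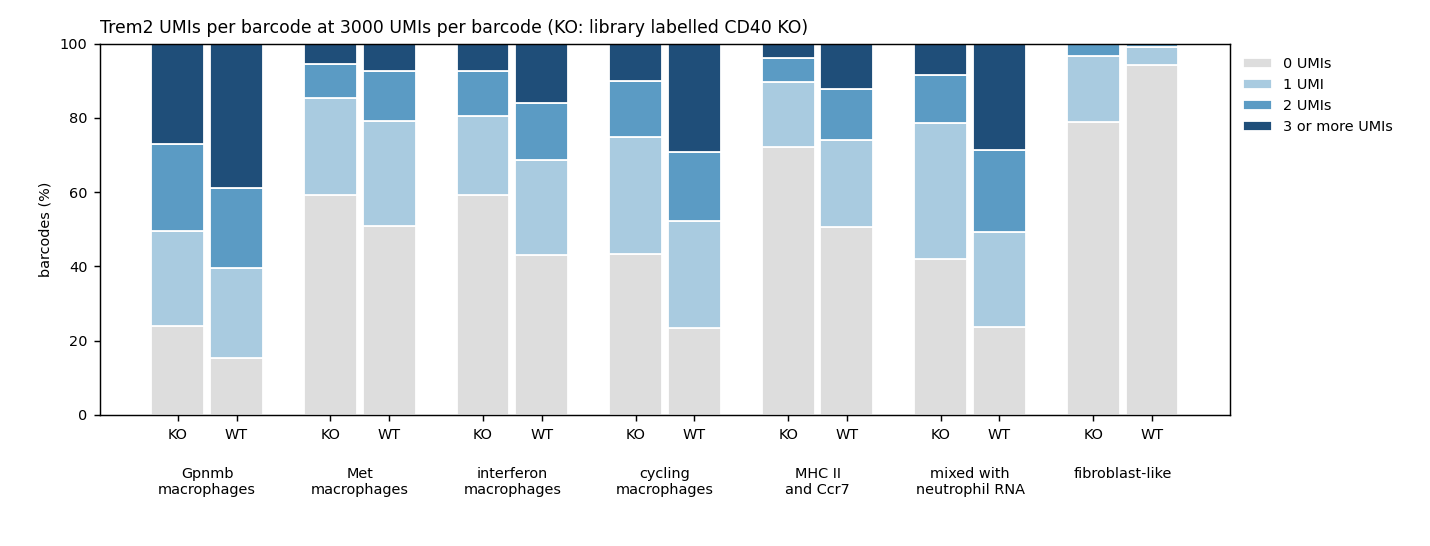
Share of barcodes (percent) with 0, 1, 2 or at least 3 *Trem2* UMIs after thinning to 3000 UMIs, for 7 cell groups, with the library labelled CD40 KO (KO) and WT side by side in each. The darkest part, at least 3 UMIs, was smaller in KO in the 6 groups that carry macrophage genes, for example 10.1% in KO and 29.1% in WT among cycling macrophages, and the fibroblast-like pair shows the background.

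Whether *Trem1* and *Trem2* met in the same barcode was read at that depth. In the KO-labelled class *Trem2* was seen in 39.6% (34.1 to 45.3) of 308 barcodes with a *Trem1* UMI and in 53.5% (51.2 to 55.7) of those without one. In the WT class the shares were 61.4% (54.9 to 67.6) of 241 barcodes with *Trem1* and 74.7% (73.4 to 76.0) of those without it. The intervals were apart in both libraries over the class as a whole. Within single clusters they were not. KO-labelled *Met* macrophages had *Trem2* in 33.6% (27.6 to 40.1) of barcodes with *Trem1* and 42.6% (39.2 to 46.1) of those without it. WT *Met* macrophages had it in 48.9% (40.4 to 57.5) of barcodes with *Trem1* and 49.0% (45.4 to 52.7) of those without it, and WT *Gpnmb* macrophages in 83.6% (73.0 to 91.2) and 84.7% (83.3 to 86.0). A *Tyrobp* UMI was present in 97.3% (96.2 to 98.2) of KO-labelled and 97.9% (97.4 to 98.4) of WT class barcodes with *Trem2*.

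The genes most like each member were taken over the 11 clusters with at least 50 WT barcodes, by Pearson r of log2(CPM + 1), among 8365 genes. These points share 1 library and its free RNA, so r is a description. For *Trem1* they were *Cdk2ap2* (r = 0.98), *Sorl1* (0.98), *Snx10* (0.97), *Mcemp1* (0.97) and *Mtmr6* (0.97). For *Trem2* they included *Pf4* (0.99), a chemokine gene of platelets and macrophages, *Nxpe5* (0.99), *Hexa* (0.99), which encodes a lysosomal enzyme subunit, and the pseudogene *Ftl1-ps1* (0.99), whose tags can come from *Ftl1*. *Trem3* and *Treml4* each had the other first (0.97), and both lists held *Trem1*, *Gm41409* and *Cdk2ap2*. *Csf3r* (0.95), the receptor gene of the neutrophil growth factor, completed the list of *Trem3*, and *Il1b* (0.93) that of *Treml4*. *Tyrobp* was closest to *Alox5ap*, *AB124611*, *Cd53*, *Lst1* and *Pirb* (0.99 to 0.998). *Hcst* was closest to *Rhog*, *Dok3*, *Pilra*, *Bst1* and *Vamp4* (0.98 to 0.99), and *Syk* to *Havcr2*, *Ptpn22*, *Gramd1b*, *Tmem189* and *D1Ertd622e* (0.98 to 0.99). Of the genes named here, *Pf4* was also among the 5 most like its member over the 9 such clusters of the KO-labelled library, and the others were not. Their r there went down to 0.74 (*Vamp4* with *Hcst*) and 0.82 (*Rhog* with *Hcst*, *Snx10* with *Trem1*). Between members, *Trem1* and *Trem3* had r = 0.98 in the KO-labelled library and 0.97 in WT, while *Trem1* and *Trem2* had −0.19 in the KO-labelled library and 0.17 in WT.

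The wider pathway was read from gene lists in the macrophage-like class at the same floor, beside the median of 0.10 over all measured genes. Of all measured genes 9.4% were past 1.5-fold upward and 3.79% downward. Of 13 listed receptors that also pair with DAP12 or DAP10, 7 were measured and none was past 1.5-fold, with a median log2 ratio of 0.20, which turned to −0.17 with equal cluster shares (0.05 over all measured genes). The highest were *Pilrb2* (0.55) and *Cd300ld* (0.41), and the lowest *Cd300c2* (−0.28) and *Cd300lb* (−0.07). *Treml2*, the neighbour of *Treml4*, was at 11.7 CPM in KO-labelled and 11.8 CPM in WT barcodes (−0.01). *Fcer1g*, the ITAM adaptor of Fc receptors and the 1 of 4 other ITAM adaptors that was measured, was at 1852 CPM in KO-labelled and 2896 CPM in WT barcodes (−0.65, −0.66 to −0.63). It was lower in KO-labelled barcodes of all 5 clusters, from −0.53 to −0.77, and stood at −0.64 with equal cluster shares, whereas *Tyrobp* stood at −0.02.

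The counts of this paragraph stand beside the 9.4% of all measured genes past 1.5-fold upward and 3.79% downward. Of 8 listed Src family kinases and regulators 6 were measured, of which 2 were past 1.5-fold upward and none downward, with a median of 0.47, or 0.14 with equal cluster shares. *Fyn* was at 273 CPM in KO-labelled and 117.5 CPM in WT barcodes (1.22, 1.18 to 1.26), and *Lyn* at 905 CPM in KO-labelled and 582 CPM in WT barcodes (0.64, 0.62 to 0.66). The lowest were *Ptprc*, which encodes CD45 (0.22), and *Csk*, the kinase that restrains them (−0.00). Of 24 listed genes that act below SYK and DAP10, 22 were measured, with a median of 0.14, or 0.06 with equal cluster shares. *Malt1* (0.73) and *Vav3* (0.63) were past 1.5-fold upward and *Lat2* (−0.73), a membrane adaptor of myeloid cells, downward, and the next lowest was *Akt1* (−0.52). Those past the fold among these 22 were near the shares over all measured genes. All 11 listed inhibitors of ITAM signalling were measured, with a median of −0.11, which turned to 0.03 with equal cluster shares. *Dok1*, at 14.96 CPM in KO-labelled and 28.8 CPM in WT barcodes (−0.95, −1.07 to −0.82), was past 1.5-fold downward and none upward, and the next lowest was *Sirpa*, the receptor of CD47 (−0.57). With equal cluster shares *Fyn* (0.70), *Lat2* (−0.60) and *Dok1* (−0.91) were past 1.5-fold, and *Lyn* (0.40), *Malt1* (0.34) and *Vav3* (0.44) were not. Over all measured genes 5.31% were then upward and 2.65% downward. The sheddases of TREM2 were at 0.32 (*Adam10*) and 0.02 (*Adam17*), and the TREM ligand *Hmgb1* was at 0.18. With median-of-ratios scaling *Fyn* (0.94), *Lat2* (−1.01) and *Dok1* (−1.23) were still past 1.5-fold, *Lyn* (0.36), *Malt1* (0.45) and *Vav3* (0.35) were not, and *Adam17* (−0.26) and *Hmgb1* (−0.10) changed sign.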

How the data were processed

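Single-cell RNA was measured in 1 library of each genotype. The deposited values are UMI counts per gene and barcode that the authors made with Cell Ranger (version 7.0.1 per the file headers) from 10x Chromium 3′ libraries. The submitters' processing notes also name STAR and mm10, and no source names the strand and intron settings. The members and gene lists were chosen with earlier results of these data known.

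Barcodes under 1000 UMIs or 500 genes, or over 10% mitochondrial UMIs, were dropped, and doublets were removed by Scrublet score at 0.8% per 1000 barcodes, since Scrublet's own limit marked 0 KO-labelled and 33 WT barcodes. Barcodes of both libraries were clustered together with scanpy 1.11.5 (2000 variable genes, 30 components, Leiden resolution 0.6), giving 14 clusters, and clusters were named from listed markers. Counts were summed per cluster and library and divided by total UMIs (CPM). Genes whose CPM averaged 10 or more over the libraries counted as measured, in the macrophage-like clusters and in other groups with 50 or more barcodes per library, and 1.5-fold was the limit of size. The ratios, their intervals and the 1.5-fold limit were tried on simulated counts that held counting error only. Clustering, naming and gating were not simulated. Intervals are exact Poisson, Clopper-Pearson or conditional binomial ones. Equal-share, thinned and gated values, and the alternatives of the closing section, changed 1 choice at a time. The text names all members, the 5 genes most like each, and from each pathway list those past 1.5-fold and its extremes. 1 gene named by this rule is not reported here. The promoter table matched 5 of the 7 members.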

Additional observations from a re-analysis of the deposited data

Results flagged for a closer look

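Results are given here where groups of cells had ratios of opposite sign (log2 ratio of CPM, CD40 KO over WT, 1 library each). *Trem1* was higher in KO-labelled macrophages, at 1.48 in the class, 0.93 in *Gpnmb* and 0.46 in *Met* macrophages, and lower in KO-labelled neutrophil-like barcodes at −0.49. *Trem2* was higher in KO-labelled fibroblast-like barcodes at 1.37, and lower in the macrophage-like class at −0.87, in *Gpnmb* macrophages at −0.32 and in *Met* macrophages at −0.23. *Tyrobp* was higher in KO-labelled fibroblast-like barcodes at 2.26, in neutrophil-like barcodes at 0.13 and in *Gpnmb* macrophages at 0.11, and was at −0.06 in *Met* macrophages. In fibroblast-like barcodes 14 of the 16 macrophage markers were higher in the KO-labelled library as well. None of these differences between cell groups was tested, since each cell group had 1 library per genotype.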

How the results depend on the processing

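No paired analysis was possible because each genotype had 1 library and no test was made. No alternative reversed a ratio of *Trem1* or *Trem2*. *Trem1* (1.48) moved to 1.20 with median-of-ratios scaling, 1.36 with every barcode weighing the same, 0.74 with equal cluster shares, 1.34 without doublet removal, 0.55 over every kept barcode and 0.84 with the marker gate. *Trem2* (−0.87) moved to −1.15, −0.90, −0.50, −0.83, −0.57 and −0.52 under the same 6 settings, and to −0.83 with the higher UMI limit, −0.84 at 5% mitochondrial UMIs, −0.84 without the members among the variable genes and −0.94 with barcodes thinned. Of 3 class definitions chosen after seeing the data, adding the cluster with neutrophil transcripts gave *Trem1* 0.53, the MHC class II cluster 1.37, and the cluster of mostly 1 library 1.72 with *Trem2* at −0.61. Genes past 1.5-fold upward (713) numbered 293 with median-of-ratios scaling, 409 with equal shares, 425 over every kept barcode, 457 with the gate, 6065 with no floor, 316 at 50 CPM, 1612 at 1.3-fold and 203 at 2-fold. Those downward (288) numbered 1095 with median-of-ratios scaling, 1215 with no floor, 142 at 50 CPM, 809 at 1.3-fold and 33 at 2-fold. Members upward (2) numbered 1 over every kept barcode, 0 with the neutrophil-transcript cluster added, 0 at 50 CPM and 4 at 1.3-fold. The members past the fold changed too: with equal shares and with the gate they were *Trem1* and *Hcst*. *Trem3* (1.18) was 0.51 with equal shares, 0.34 with the neutrophil-transcript cluster added, 0.27 with the gate and 0.20 over every kept barcode, and *Syk* (0.39) was 0.07 with the gate. Members downward (1) numbered 0 with equal shares, over every kept barcode, with the gate and at 2-fold. Among 314 other values 120 moved by less than their interval and 194 by more, and of those past the fold 0 reversed. The construction of a setting (fewer genes at a higher floor, other barcodes in the class) changes what is compared, and no other cause was tested. With 1 library per genotype the spread between animals is unknown.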
